A study of Rattus norvegicus with 9 samples.

Results

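Tissue macrophage genes were compared between skull and limb bone of the adult rat. The list held 10 genes, Cd68, Gpnmb, Clec10a, Mrc1, Adgre1, Cd163, Trem2, Siglec1, Cd14 and Msr1, and its members were the probe sets annotated to 1 of these genes alone. In all, 8 of the 10 genes were measured, by 9 probe sets of the 31042 on the array that were not controls. These belonged to 14217 genes with a probe set of their own. Siglec1 (sialoadhesin) and Msr1 (scavenger receptor A) had no probe set of their own in the annotation used and were not analysed here.

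RNA of whole bone came from the skull (calvaria, 4 arrays) and from the limb (ulna, 5 arrays) of untreated male CD rats, whose weight is given as 110 g, and was read on Affymetrix Rat Genome 230 2.0 arrays. Per the study's methods, soft tissue and the epiphyses or sutures were removed and each extract pooled a group of 4 rats, whereas removal of marrow is not mentioned for these extracts. Array n of the skull is called calvaria n and array n of the limb ulna n. For ulna 1, 2, 3 and 4 a tissue field in the labels names the calvaria, against their titles and source names, which were followed here. Hoxa9, a patterning gene of the trunk and limb, had signals of 1.82 to 4.8 on the skull arrays and 60.4 to 79.0 on all 5 limb arrays. Values are MAS5 signals on a linear scale, with each array brought to the same median of 33.82, and 8.34 was the highest signal of 3 control probe sets for transcripts that rats lack. RNA integrity was read from control probe sets, as the log2 ratio of 3' over 5' signal. It was 0.28 to 0.59 for Gapdh on the skull arrays and 0.21 to 0.37 on the limb arrays, and for beta-actin 0.75 to 1.04 in skull and 0.57 to 0.86 in limb. The part of these ratios in the differences was not tested. Since whole bone was extracted, fewer cells of a type and less RNA per cell cannot be told apart.

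Macrophages are phagocytes that reside in most tissues, where they clear dead cells, debris and microbes. In bone they line the surfaces beside osteoblasts, occupy the marrow, where some surround maturing red cells, and share a myeloid origin with osteoclasts, the multinucleate cells that resorb bone. The listed genes encode different parts of the phagocyte. Cd68 and Gpnmb encode membrane glycoproteins of the lysosome and endosome. Clec10a and Mrc1 encode C-type lectins that bind sugars on ligands. Cd163, Msr1 and Siglec1 encode receptors for haemoglobin complexes, modified lipoproteins and sialylated surfaces, and Adgre1 encodes F4/80, an adhesion G protein-coupled receptor used as a macrophage marker in rodents. Trem2 and Cd14 encode receptors that sense lipids and bacterial lipopolysaccharide.

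The listed genes differed in their contrast between the sites. Of their 9 probe sets, 4 passed in the direction of higher skull signal, with 2-fold or more between the sites and an adjusted p below 0.05 (limma, Benjamini-Hochberg over all 31042 probe sets), and none was lower. They were those of Clec10a, Gpnmb and Cd68 and the brighter one of Trem2. By the same thresholds 2.89% of all probe sets were higher and 3.36% lower, 6.24% in either direction. With each gene represented by its brightest probe set, 4 of 8 member genes were higher and none lower, against 3.47% and 4.31% of all genes. Cd14 and Mrc1 also passed the adjusted p, at less than 2-fold. Adgre1 and Cd163 did not pass. For 6 of the 9 probe sets every skull array lay above every limb array, which was so for 9.53% of all probe sets. The median log2 difference, skull minus limb, was 1.17 over the 8 member genes and -0.02 over all genes. Leaving out 1 array at a time gave between 3 and 5 called member probe sets, the calls that moved being those of Trem2 and Cd14 described with these genes.

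**Figure D1:**
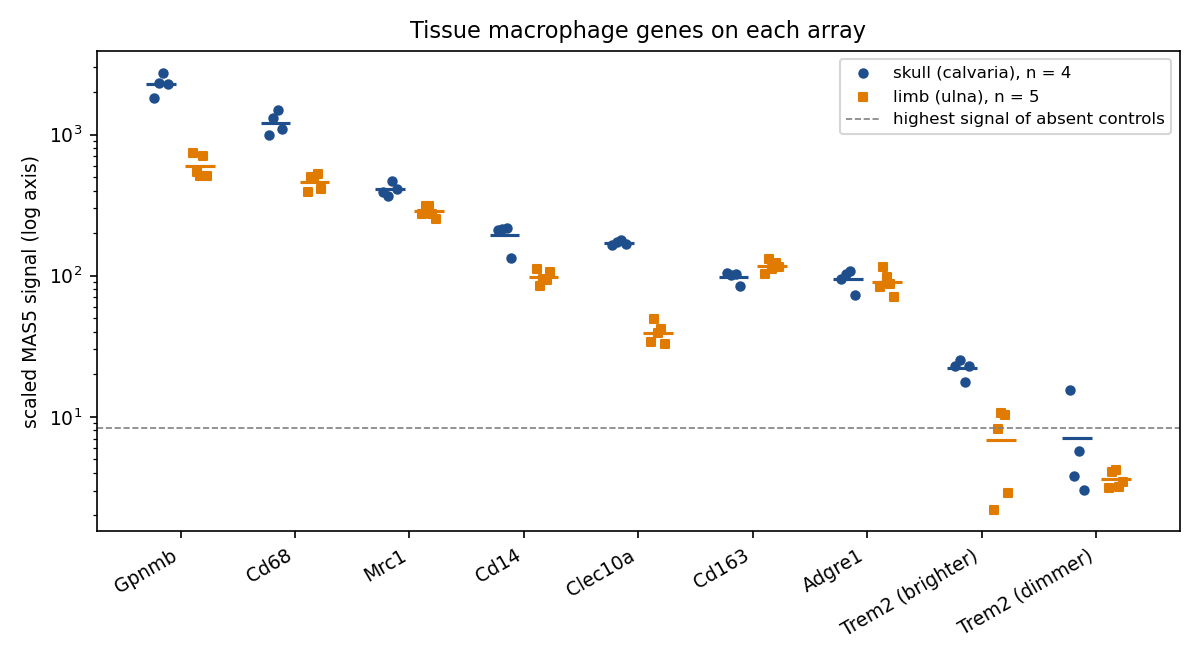
Signals of the 9 member probe sets on each array, on a log axis of scaled MAS5 signal. Circles are the 4 skull arrays, squares the 5 limb arrays and horizontal bars the means, and the dashed line marks the absent-control level of 8.34. Skull and limb points are separate for Gpnmb, Cd68, Mrc1, Cd14, Clec10a and the brighter Trem2 probe set, and overlap for Cd163, Adgre1 and the dimmer Trem2 probe set.

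Both lysosomal glycoproteins were higher in skull. Gpnmb, also known as osteoactivin and made by osteoclasts, osteoblasts and pigment cells as well as by phagocytes, had signals of 1802, 2306, 2746 and 2293 in calvaria 1 to 4. On ulna 1 to 5 its signals were 735, 545, 512, 705 and 511. The lowest skull array was thus more than 2-fold above the highest limb array. The means were 2287 ± 386 in skull (SD, n = 4) and 601 ± 110 in limb (SD, n = 5), a skull to limb (S:L) ratio of 3.80. The log2 difference was 1.93 ± 0.16 (SE, adjusted p = 6.58e-05, limma).

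Cd68 (macrosialin) is a lysosomal membrane protein used as a general marker of macrophages, and osteoclasts carry it too. Its signals were 986, 1310, 1482 and 1086 on calvaria 1 to 4, against 389, 503, 492, 526 and 411 on ulna 1 to 5. Again the sites did not overlap. Cd68 averaged 1216 ± 223 in skull and 464 ± 60.4 in limb (SD, n = 4 and 5), an S:L ratio of 2.62 and a log2 difference of 1.38 ± 0.14 (SE, adjusted p = 0.000169, limma). Both genes had their highest skull signal on calvaria 3 and their lowest on calvaria 1.

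Of the lectins, Clec10a differed more between the sites than Mrc1, and its skull values lay close together. Clec10a (MGL, CD301) binds terminal galactose and N-acetylgalactosamine and is carried by macrophages and by some dendritic cells. Its signals were 166, 174, 178 and 167 on calvaria 1 to 4, and 33.6, 49.0, 39.2, 42.2 and 32.8 on ulna 1 to 5. The coefficient of variation was 3.27% among the skull arrays and 16.8% among the limb arrays. Clec10a averaged 171 ± 5.59 in skull and 39.4 ± 6.63 in limb (SD, n = 4 and 5). The S:L ratio was 4.35 and the log2 difference 2.14 ± 0.12 (SE, adjusted p = 2.23e-05, limma), which placed the probe set at percentile 99.8 of the differences over all probe sets.

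Mrc1, the mannose receptor CD206 of macrophages and of some sinus endothelia, differed in the same direction but by less. Its signals were 391, 366, 470 and 414 on calvaria 1 to 4, and 275, 313, 312, 274 and 254 on ulna 1 to 5, again with no overlap. The means were 410 ± 44.6 in skull and 285 ± 25.8 in limb (SD, n = 4 and 5), an S:L ratio of 1.44. The log2 difference was 0.52 ± 0.09 (SE, adjusted p = 0.00302, limma), with a 95% interval of 0.32 to 0.73 that lay wholly under 2-fold.

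Adgre1 and Cd163 are often taken as identity markers of resident macrophages, and neither passed the test. Adgre1 had signals of 95.2, 103, 108 and 72.8 on calvaria 1 to 4, and 83.0, 114, 97.7, 86.8 and 71.1 on ulna 1 to 5. All 4 skull values lay within the range of the limb values. Means were 94.8 ± 15.6 in skull and 90.6 ± 16.3 in limb (SD, n = 4 and 5), and the log2 difference was 0.07 ± 0.16 (SE, adjusted p = 0.826, limma). The 95% interval of the fold was 0.816 to 1.35, so that a difference of 2-fold lay outside it.

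Cd163, the scavenger receptor for haptoglobin bound to haemoglobin, had a lower mean in skull than in limb but did not pass the test. Its signals were 105, 101, 103 and 84.2 on calvaria 1 to 4, against 103, 132, 111, 122 and 116 on ulna 1 to 5. A single limb array, ulna 1, lay within the skull range. The means were 98.2 ± 9.46 in skull and 117 ± 11.2 in limb (SD, n = 4 and 5). The log2 difference of -0.25 ± 0.09 (SE) did not pass after adjustment (adjusted p = 0.102, limma), and the unadjusted 95% interval of the fold was 0.726 to 0.977.

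Of the sensing receptors, Cd14 lay just under the fold threshold. Cd14 is the co-receptor that hands lipopolysaccharide to Tlr4. Its signals were 211, 214, 217 and 133 on calvaria 1 to 4, and 112, 84.6, 95, 93.7 and 106 on ulna 1 to 5. Calvaria 4 stood well below the other skull arrays yet above every limb array. The means were 194 ± 40.7 in skull and 98.1 ± 10.6 in limb (SD, n = 4 and 5), an S:L ratio of 1.98 and a log2 difference of 0.96 ± 0.16 (SE, adjusted p = 0.00226, limma). Without calvaria 4 the difference was 1.13, without ulna 1 it was 1.01 and with the arrays as the authors scaled them it was 1.02, and each of these passed both thresholds.

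Trem2, which signals through the adaptor Tyrobp (DAP12) and is known from microglia, lipid-laden macrophages and osteoclasts, had signals near background. Its brighter probe set gave 22.8, 25.4, 17.5 and 22.8 on calvaria 1 to 4 and 2.2, 8.13, 10.7, 10.3 and 2.86 on ulna 1 to 5. All skull values were above the absent-control level of 8.34, but 3 of the 5 limb values were at or below it, so that the size of the difference was not resolved. The log2 difference was 1.92 ± 0.50 (SE, adjusted p = 0.023, limma), with a 95% interval of 0.80 to 3.05. The adjusted p was 0.0535 without calvaria 1, 0.0627 without calvaria 2 and 0.0546 without calvaria 4, and lay between 0.000267 and 0.0914 over the 19 alternatives run. The dimmer probe set gave 15.6, 3.81, 5.73 and 3.05 on the skull arrays and 3.13 to 4.2 on the limb arrays, so that only calvaria 1 exceeded the absent-control level. Its log2 difference of 0.66 ± 0.43 did not pass (SE, adjusted p = 0.342, limma).

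**Figure D2:**
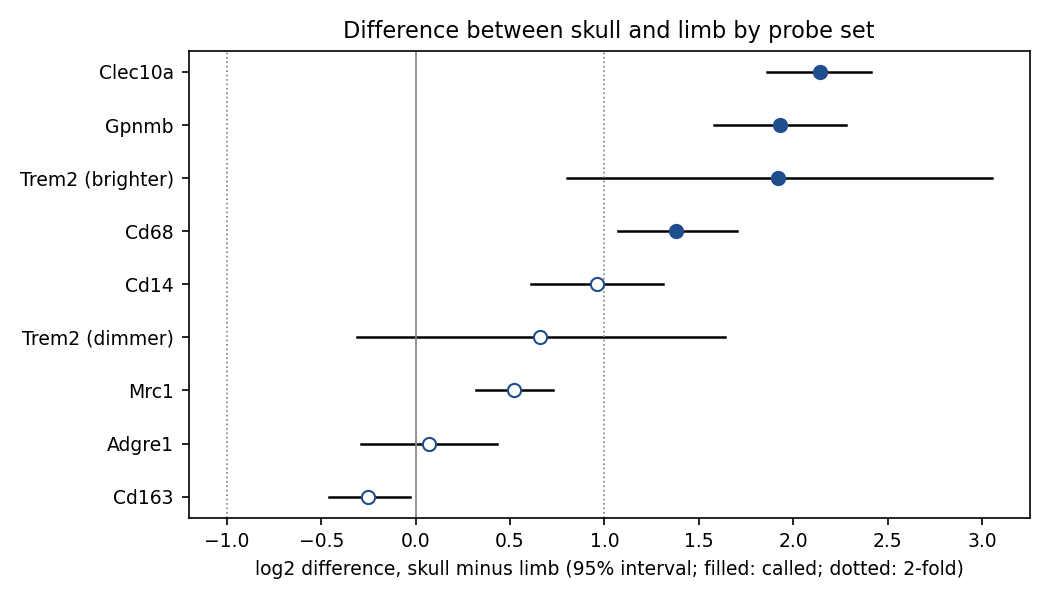
Log2 differences, skull minus limb, of the 9 member probe sets (x axis), with 95% intervals from limma that are not adjusted for the number of probe sets. Filled points passed both thresholds and dotted lines mark 2-fold. The differences run between 2.14 for Clec10a and -0.25 for Cd163, and the interval of the brighter Trem2 probe set is the widest.

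Promoter windows, reaching from 250 bases before to 50 bases after the annotated start of a gene, were available for 7 of the 10 genes (RefSeq, GRCr8). They were searched on both strands for sequences bound by factors of myeloid genes, as a description of the letters present. The pattern TGANTCA, which takes any base at its centre, is wider than the AP-1 site TGAGTCA of Fos and Jun dimers. It occurred in 3 of the 7 windows, those of Gpnmb, Cd68 and Trem2, and in 7.33% of 33469 windows in all. The match reads TGAGTCA in Gpnmb and Cd68 and TGAATCA in Trem2. These 3 genes were among the called members, and no window was available for Clec10a, the other called gene. The windows of Cd14 and Mrc1, which passed the adjusted p at less than 2-fold, held no match, nor did those of Adgre1 and Cd163. Whether a match goes with a difference between the sites was not tested. The core of the PU.1 motif, GAGGAA, occurred in 6 of the 7, all but that of Cd163, and in 27.6% of all windows. The E-box variant CATGTG, to which Mitf and Tfe factors can bind, occurred in Gpnmb, Cd68 and Mrc1 and in 14% of all windows. In Gpnmb it began 22 bases before the start.

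The stretches printed here run from 220 bases before to 10 bases after the start, 5' to 3' on the strand of the gene, and TGANTCA is in capitals. They are shown for the 3 genes that hold a match and for Adgre1, whose window holds none. Gpnmb lies at chr4:79340908-79341137 on the plus strand, Cd68 at chr10:54882432-54882661 on the minus strand, Trem2 at chr9:20151770-20151999 on the minus strand and Adgre1 at chr9:2329220-2329449 on the plus strand of GRCr8. In Cd68 a match begins at 205 and at 80 bases before the start, in Gpnmb at 87 bases before it, and in Trem2 the match spans the start itself.
Gpnmb: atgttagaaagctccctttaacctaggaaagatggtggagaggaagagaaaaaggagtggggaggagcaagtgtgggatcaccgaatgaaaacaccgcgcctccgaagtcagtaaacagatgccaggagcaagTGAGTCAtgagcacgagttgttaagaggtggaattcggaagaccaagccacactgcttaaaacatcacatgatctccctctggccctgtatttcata
Cd68: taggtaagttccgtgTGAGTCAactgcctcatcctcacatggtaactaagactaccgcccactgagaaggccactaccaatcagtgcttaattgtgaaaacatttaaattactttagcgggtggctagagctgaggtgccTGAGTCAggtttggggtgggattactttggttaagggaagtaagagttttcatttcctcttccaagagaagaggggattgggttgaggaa
Trem2: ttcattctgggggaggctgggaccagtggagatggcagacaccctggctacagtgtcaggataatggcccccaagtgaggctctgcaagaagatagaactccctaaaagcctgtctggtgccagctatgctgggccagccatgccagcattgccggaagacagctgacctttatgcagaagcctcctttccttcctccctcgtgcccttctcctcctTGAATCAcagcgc
Adgre1: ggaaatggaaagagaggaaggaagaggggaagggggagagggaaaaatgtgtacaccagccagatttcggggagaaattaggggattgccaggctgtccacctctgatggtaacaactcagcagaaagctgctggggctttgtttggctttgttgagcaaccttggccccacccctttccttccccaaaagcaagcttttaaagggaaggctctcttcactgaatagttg

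The members also differed from each other in their contrast between the sites. This was read within each array, as the log2 difference between 2 members, which does not depend on how the arrays are scaled. Levels of different genes rest on different probes, so only the change of such a difference between the sites is read. Pairs were taken among the 7 genes above the absent-control level at both sites, which leaves out Trem2. Of the 21 pairs, 17 differed between skull and limb at an adjusted p below 0.05 (exact permutation test over all splits of the arrays into 4 and 5, two-sided, Benjamini-Hochberg over the pairs), and 15 did not overlap. The smallest p this design allows is 0.00794. The 21 pairs reuse the same 7 genes and the same site differences as the calls of single probe sets, so they are not independent of each other or of those calls. The share of such pairs among all genes of the array was not computed. Leaving out 1 array at a time gave between 15 and 18 such pairs.

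The largest of these contrasts set Clec10a against Cd163. Clec10a minus Cd163 was 0.66 to 0.99 within the skull arrays and -1.81 to -1.43 within the limb arrays, a difference of 2.38 on the log2 scale (exact permutation p = 0.00794, adjusted p = 0.0128). The skull and limb values of this difference thus lay more than 4-fold apart. Gpnmb minus Adgre1 was 4.24 to 4.98 in skull and 2.25 to 3.15 in limb, and Cd68 minus Adgre1 was 3.37 to 3.90 in skull and 2.14 to 2.60 in limb (exact permutation, adjusted p = 0.0128 for each). The lectins also parted, Clec10a minus Mrc1 being 1.61 higher in skull (exact permutation, adjusted p = 0.0128). Mrc1 minus Cd163 was 0.77 higher in skull (exact permutation, adjusted p = 0.0128).

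The 4 pairs that did not pass were Clec10a with Gpnmb, Cd68 with Cd14, Cd14 with Mrc1 and Adgre1 with Cd163. Clec10a minus Gpnmb changed by 0.21 between the sites (exact permutation, adjusted p = 0.365), with -3.95 to -3.44 in skull and -4.45 to -3.48 in limb. Adgre1 minus Cd163 changed by 0.32 (exact permutation, adjusted p = 0.0555). Gpnmb minus Cd68 changed by 0.55 and lay just past the threshold (exact permutation, adjusted p = 0.049), with overlapping values of 0.82 to 1.08 in skull and 0.06 to 0.92 in limb.

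**Figure D3:**
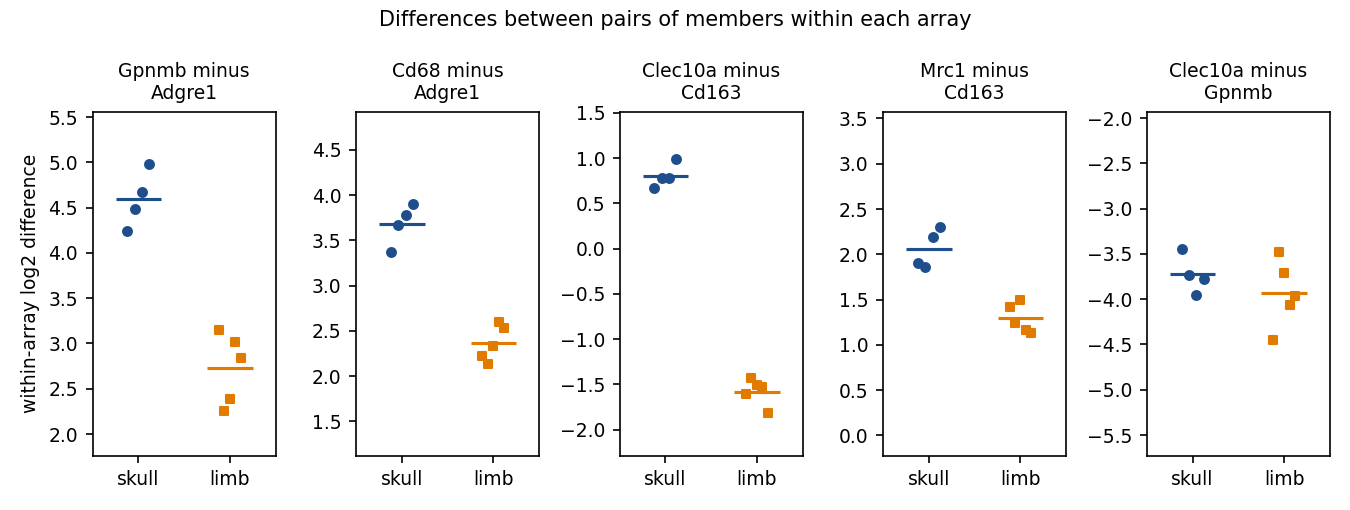
Log2 difference between 2 members within each array (y axis) for 5 of the 21 pairs, with the 4 skull arrays as circles, the 5 limb arrays as squares and means as bars; all panels span the same height. The sites are separate in the first 4 panels and overlap for Clec10a minus Gpnmb.

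For each called member the genes with the most similar profile over the 9 arrays were found among 11788 genes above the absent-control level at both sites. Likeness was the root mean square difference of the log2 profiles after centring, so that it reflects the site difference as well as the scatter among replicates. Closest to Cd68 were Slc36a2 (0.10), Slc35e4 (0.11) and Cstb (0.12), the last encoding cystatin B, an inhibitor of lysosomal cathepsins. Closest to Gpnmb were Srpx2 (0.13), Col22a1 (0.14) and Serping1 (0.15), and closest to Clec10a were Cpa3 (0.19), a mast cell protease, Wif1 (0.20), a secreted Wnt inhibitor, and Nkain1 (0.21). Trem2 had no gene as near, its closest being Cadm3 at 0.41. No other member was among the 3 nearest genes of a called member.

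Ligands, partners and regulators of the members were mixed. Of 22 such genes 20 were measured, of which 3 were higher in skull, 1 was lower and 16 were not called, with a median log2 difference of 0.39. Csf1r, the receptor for the growth factor on which macrophages and osteoclasts depend, averaged 953 ± 152 in skull and 328 ± 33.9 in limb (SD, n = 4 and 5), a log2 difference of 1.53 ± 0.12 (SE, adjusted p = 5.58e-05, limma). Apoe, a lipid carrier that Trem2 binds, was 1374 ± 74.0 in skull and 629 ± 44.4 in limb, a log2 difference of 1.13 ± 0.07 (SE, adjusted p = 2.29e-05, limma). A second Apoe probe set, at signals near or under the absent-control level, passed both thresholds in the other direction, with a difference of -1.44 (adjusted p = 0.0223, limma). Mitf, a transcription factor of osteoclasts and pigment cells that drives Gpnmb, averaged 116 ± 25.4 in skull and 42.9 ± 8.05 in limb, a log2 difference of 1.43 ± 0.17 (SE, adjusted p = 0.00044, limma).

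The partner that fell was Hp, haptoglobin, which loads haemoglobin onto Cd163. Hp averaged 244 ± 82.4 in skull and 764 ± 31.5 in limb (SD, n = 4 and 5), a log2 difference of -1.70 ± 0.18 (SE, adjusted p = 0.000211, limma), while Cd163 itself did not pass. Around Cd14, the lipopolysaccharide-binding protein Lbp averaged 718 ± 48.8 in skull and 363 ± 24.1 in limb, just under 2-fold (adjusted p = 3.33e-05, limma), and Ly96 was at 248 ± 37.8 and 176 ± 12.8. Their signalling receptor Tlr4 was at 36.2 ± 7.19 in skull and 41.5 ± 6.27 in limb (adjusted p = 0.501, limma). Tyrobp, the adaptor of Trem2, was at 1473 ± 415 in skull and 896 ± 259 in limb, with overlap between the sites (adjusted p = 0.0669, limma). Csf1, a ligand of Csf1r, was at 195 ± 37.2 in skull and 127 ± 17.9 in limb by its brightest probe set, which was not called, whereas 2 dimmer ones were called with log2 differences of 1.82 and 1.08.

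Other macrophage genes, 30 of 36 measured, had a median log2 difference of 0.00, with 4 higher in skull, 4 lower and 22 not called. Dab2, an endocytic adaptor, averaged 1293 ± 86.9 in skull and 552 ± 58.9 in limb (SD, n = 4 and 5), a log2 difference of 1.23 ± 0.09 (SE, adjusted p = 4.21e-05, limma). Stab1, a scavenger receptor of macrophages and sinus endothelium, Arg1, an arginine-degrading enzyme, and Ms4a7 were also higher, by 1.06, 1.10 and 1.04. The call of Arg1, at 23.6 ± 3.87 in skull and 11.1 ± 2.29 in limb, was lost with log2(signal + 16), at 0.55, and that of Stab1 with the same setting, at 0.97, and without calvaria 3, at 0.94. That of Ms4a7 was lost when any of calvaria 3, calvaria 4, ulna 3 or ulna 5 was left out, at 0.84 to 1.06, and under the replicate block, array weights and log2(signal + 16), at 0.84, 0.93 and 0.68. Summed over the 30 genes, signals were 12953 to 14146 in skull and 14584 to 17315 in limb, so that skull lay lower. This order rests on Pf4, at 1171 ± 185 in skull and 3266 ± 257 in limb, and without Pf4 the ranges of the sites overlap.

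The 4 that fell were Cd5l, Pf4, Cd36 and Itgam. Cd5l, a product of macrophages in spleen and liver, averaged 81.8 ± 20.7 in skull and 249 ± 17 in limb (SD, n = 4 and 5), a log2 difference of -1.64 ± 0.15. Pf4, which megakaryocytes also make, averaged 1171 ± 185 in skull and 3266 ± 257 in limb, and its log2 difference was -1.49 ± 0.12. Itgam (CD11b), shared with neutrophils, had a log2 difference of -1.32 ± 0.21 and Cd36 one of -1.33 ± 0.22. The complement genes C1qa, C1qb and C1qc, typical products of resident macrophages, did not pass. C1qb was at 321 ± 31.7 in skull and 322 ± 24.8 in limb, and C1qa at 667 ± 69.0 and 694 ± 71.2. The lysozyme gene Lyz2 was at 4990 ± 284 in skull and 5312 ± 772 in limb.

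Markers of other cells in bone were read beside the members. Of 12 measured osteoclast genes 7 were called higher in skull, none was called lower and 5 were not called, with a median log2 difference of 1.40. In 11 of them the difference was positive, though Itgb3 and Nfatc1 were at only 0.13 and 0.24. Car2 was lower in skull without overlap, at under 2-fold. Its 2 probe sets were at -0.87 and -0.89 (adjusted p = 0.000257 and 0.000152, limma). Acp5 (tartrate-resistant acid phosphatase) averaged 4677 ± 704 in skull and 1422 ± 178 in limb (SD, n = 4 and 5), and Ctsk (cathepsin K), Mmp9 and Slc9b2 were higher by 1.43, 1.60 and 2.78 on the log2 scale. Summed over the osteoclast list, signals were 13259 to 18007 on the skull arrays and 8181 to 8833 on the limb arrays. Both Cd68 and Gpnmb are made by osteoclasts, as are Trem2 and Csf1r, and the part of osteoclasts in their differences was not tested. Among 7 measured melanocyte genes, relevant to Gpnmb and Mitf, Mlana was higher in skull, at 41.5 ± 6.22 against 2.18 ± 0.873 in limb, whereas the other 6 were not called, and of these Tyr, Sox10 and Gpr143 did not exceed the absent-control level in their mean over all arrays. Tyrp1, Dct and Pmel had log2 differences of 0.05, 0.26 and 0.08. Summed melanocyte signals were 82 to 131 in skull and 45 to 60 in limb, and without Mlana 47 to 85 in skull and 43 to 57 in limb, with overlap.

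Dendritic cells also carry Clec10a, and Cpa3, near it in profile, marks mast cells. Of 11 genes of dendritic cells and MHC class II, 2 were higher in skull and 1 was lower. The 2 higher genes belong to MHC class II. Summed signals of the list were 3126 to 4305 in skull and 2229 to 2658 in limb. They were led by the MHC class II genes Cd74, at 1703 ± 222 in skull and 1108 ± 153 in limb, and RT1-Da. RT1-Bb was higher by 1.44 on the log2 scale, whereas a dimmer probe set of it was at 0.92 with overlap (adjusted p = 0.485, limma). RT1-Da was higher by 1.01, a call that was lost without calvaria 2 (0.97) or calvaria 3 (0.86). Flt3 was lower by 1.78, or by 0.85 and no longer called with log2(signal + 16). Among dendritic cell genes not called, Irf8 was at -0.55 without overlap (adjusted p = 0.000408, limma), Cd83 at -0.29 and Batf3 at 0.03. Clec9a, at 0.44, did not exceed the absent-control level in its mean over all arrays. Of 9 mast cell genes 4 were higher, Cpa3, Cma1, Tpsb2 and Tpsab1, with summed signals of 708 to 920 in skull and 386 to 469 in limb. The other 5 were not called, and the list median was 0.24. Ms4a2 was lower in skull by its brighter probe set, at -0.86 (adjusted p = 0.000841, limma), and at -0.14 by a dimmer one. Kit, Fcer1a and Hdc were at -0.11, -0.03 and -0.46, and Mcpt1 was at 0.24. Of 9 endothelial genes, which bear on Mrc1 and Stab1, 1 was higher and 1 lower, with a median log2 difference of 0.51. Their summed signals were 1676 to 1771 in skull and 1317 to 1569 in limb. In 7 of them the difference was positive. Eng (0.99), Tek (0.80), Kdr (0.53), Pecam1 (0.51) and Esam (0.40) passed the adjusted p at under 2-fold. Stab2 was lower in skull, at -0.81 (adjusted p = 0.00423, limma), and Flt4 was at 0.14. Emcn (endomucin) was higher by 1.02, a call lost without calvaria 3 (0.99) or ulna 3 (0.97), and Vwf, von Willebrand factor, had a difference of -1.27. Of 9 osteoblast genes 2 were higher and none lower, Pth1r, the receptor of parathyroid hormone, by 1.54 and Ibsp, bone sialoprotein, by 1.06, a call lost without calvaria 3 (0.96). A dimmer Pth1r probe set was at 0.19 (adjusted p = 0.669, limma). Summed osteoblast signals, led by Col1a1, Col1a2 and Bglap near the top of the signal scale, were 33340 to 43395 in skull and 24556 to 33454 in limb. The part of these cells in the member differences was not tested.

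Genes of leukocytes in general were not called higher in skull. None of 9 measured pan-leukocyte genes was called, and their summed signals were 7418 to 8778 in skull and 10366 to 11213 in limb, so that skull lay lower. Coro1a, an actin-binding protein of leukocytes, was at 1384 ± 188 in skull and 2300 ± 118 in limb, and Arhgdib at 1284 ± 214 and 1803 ± 95.1. Ptprc (CD45) was at 361 ± 53.0 in skull and 542 ± 38.5 in limb (SD, n = 4 and 5). These genes and Itgb2, Ptpn6 and Rac2 passed the adjusted p at under 2-fold, all lower in skull. Cd53, Laptm5 and Lcp1 did not pass it, with log2 differences of 0.05, 0.12 and -0.10. Of 9 monocyte and neutrophil genes 4 were lower in skull and none higher. Their summed signals, led by S100a8 and S100a9, were 10167 to 12608 in skull and 16356 to 21204 in limb. Ccr2, a monocyte gene of the list, was at 33.8 ± 9.83 in skull and 33.0 ± 6.89 in limb (adjusted p = 0.992, limma). The 4 lower genes were the granule genes Camp, Lcn2 and Mmp8 and the granulocyte factor Cebpe, with log2 differences of -1.26, -1.17, -1.81 and -1.16. Cebpe was no longer called with log2(signal + 16), at -0.99. Of 8 erythroid genes 7 were lower, among them Klf1, Gata1, Epb42 and Hemgn at -1.84, -1.81, -1.84 and -1.55. All 10 skeletal muscle genes were lower, Acta1, Tnnc2, Mybpc1 and Myl1 among them, with summed signals of 64 to 130 in skull and 9083 to 22917 in limb. The summed signals of the 8 measured tissue macrophage genes were 3779 to 5321 in skull and 1504 to 1860 in limb. Without Gpnmb and Cd68 the other 6 summed to 894 to 1094 in skull and 582 to 701 in limb. These sums restate the differences of single genes, and among the 6 Adgre1 and Cd163 did not pass.

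**Figure D4:**
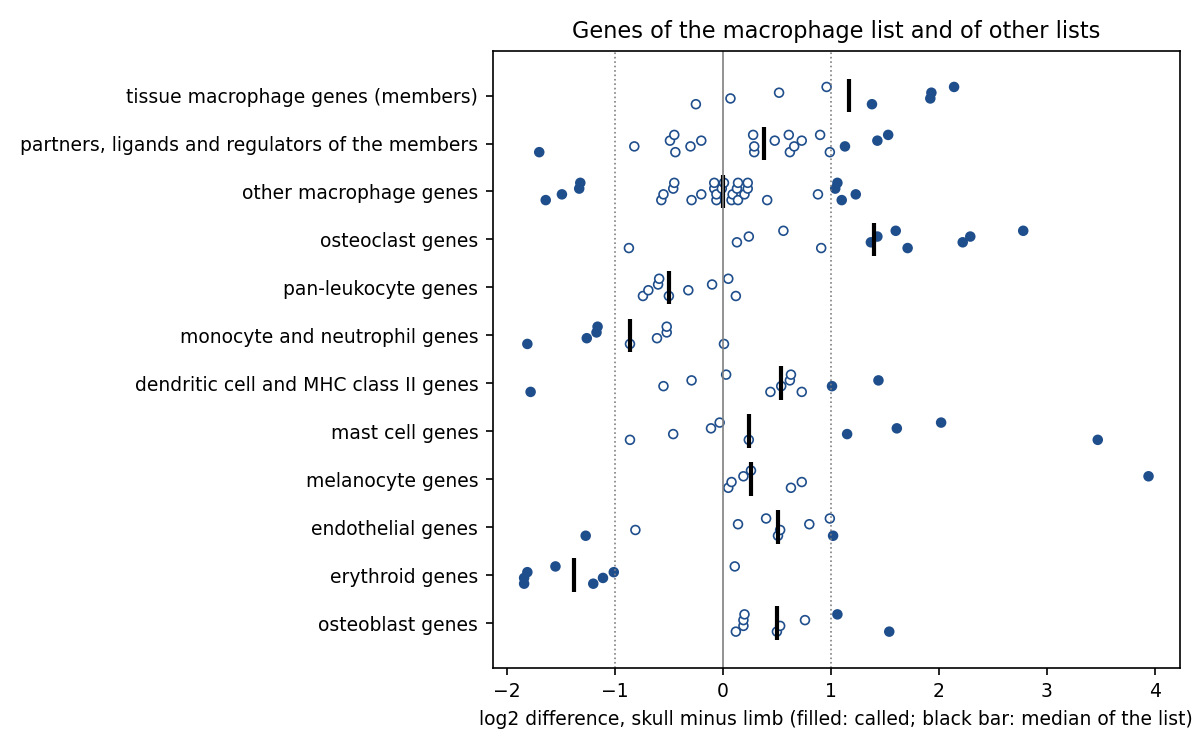
Log2 differences, skull minus limb, of each measured gene (x axis) for the member genes and the other lists, with filled points for called genes and black bars for list medians. The median was 1.17 for the members and 1.40 for osteoclast genes, against 0.00 for other macrophage genes and -0.50 for pan-leukocyte genes; skeletal muscle genes, with a median of -7.43, lie off the scale and were left out.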

How the data were processed

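The authors deposited linear intensities, namely a MAS5 signal for each probe set on each array, already scaled to a common trimmed mean. Of 31099 probe sets 57 were controls. The platform annotation gave 1 symbol to 20826 of the rest, several to 436 and none to 9780, and 20758 were matched by gene identifier to RefSeq (GRCr8). All arrays were rescaled to a median of 33.82, the average of their own medians. Signals were floored at 2.51, the 10th percentile, and taken to log2. Skull was compared with limb by limma 3.58.1 (R 4.3.3; lmFit, eBayes with an intensity trend), tested first on simulated data. Calls needed 2-fold or more and, after Benjamini-Hochberg adjustment over all probe sets, a p below 0.05. The brightest probe set represented a gene. S:L ratios are ratios of mean scaled signals without the floor. Replicates are pools of rats, and their number limits the precision.

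All members were named, with every called partner and other macrophage gene. From each further list came the called genes with the smallest adjusted p, at most 4, or the brightest 2 where none was called. Tlr4, Tyrobp, Lbp, Ly96, Csf1, Ptprc, Lyz2 and the C1q genes were chosen after their values were seen. So were Car2, Itgb3 and Nfatc1 of osteoclasts and the mast cell genes that were not called. Chosen in the same way were Cd74, Irf8, Cd83, Batf3, Clec9a, Ccr2, S100a8 and S100a9. The endothelial genes other than Emcn and Vwf and the pan-leukocyte genes other than Coro1a and Arhgdib were too. Members and lists were chosen with earlier results of these data known. The study lists genes of several lists as differing on these arrays, among them the member Gpnmb, the partners Csf1r, Csf1, Mitf and Maf, Acp5, Mmp9, Ctsk and Calcr of osteoclasts, Ibsp and Pth1r of osteoblasts, and Klf1 and Gata1, so that the members and these lists are not independent of the study. Same-numbered arrays of the 2 sites deviated together with correlations of 0 to 0.148, so the numbers were not taken to pair the arrays. The study's methods describe groups of 4 rats for both bones, so skull and limb arrays may come from the same pools. Which arrays share a pool could not be told, and the arrays were treated as independent.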

Additional observations from a re-analysis of the deposited data

Results flagged for a closer look

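The Cd14 signal on calvaria 4 was 133, far from the other 3 skull arrays, which lay between 211 and 217. The gap to the nearest array was 0.927 of the range of the 4 skull arrays, against a critical value of 0.829 for Dixon's test. It was the 1 such case among 20 groups of arrays examined, the 9 member probe sets and Ptprc at each site, and chance alone gives about 1 in 20. On calvaria 4 Adgre1 (72.8) and Cd163 (84.2) were also at their lowest among the skull arrays, as was Ptprc, at 290 against 367 to 418, whereas Clec10a, Gpnmb and Mrc1 were not.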

How the results depend on the processing

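The calls of Clec10a, Gpnmb and Cd68 held under every alternative run: other scalings, floors, weights and filters, the methods' per-gene test, the spike-in level as a covariate (added after seeing the data) and each array left out in turn. With the fold threshold kept, 3 to 5 member probe sets were called higher and none lower. Adgre1 changed sign, without passing the threshold, to -0.01 with the replicate number as a block and to -0.01 without ulna 5. Under that block, with pairing not shown by the data, the difference of the brighter Trem2 probe set was 1.67 (adjusted p = 0.0914, limma) and 3 member probe sets stayed called. With log2(signal + 16) it had a difference of 0.75, under 2-fold, RT1-Da (0.98) and Emcn (0.96) also lost their calls, and 1032 probe sets were called over the whole array in place of 1938, since the added constant shrinks dim differences. RT1-Da was also under 2-fold with the spike-in covariate (0.96). Without the fold threshold 6678 were called, 6 of them member probe sets. Leaving out 1 array gave differences of 2.07 to 2.22 for Clec10a, 1.84 to 2.04 for Gpnmb, 1.28 to 1.48 for Cd68, 0.90 to 1.13 for Cd14, 0.45 to 0.58 for Mrc1, -0.01 to 0.19 for Adgre1, -0.29 to -0.18 for Cd163 and, for Trem2, 1.62 to 2.15 by the brighter and 0.18 to 0.96 by the dimmer probe set, the lowest without calvaria 1. The brighter one gave 1.10 with the floor at the 25th percentile, and still passed. Dim signals limit Trem2, and the arrays cannot assign a transcript to a cell type.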

Other observations

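Families around the members were chosen after the data were seen. Of 19 measured genes named Clec, 7 were higher in skull, 3 lower and 9 not called, with a median log2 difference of 0.44. Over all genes 3.47% were higher and 4.31% lower. The family was taken by symbol alone and is not limited to myeloid cells. Clec11a, Clec14a, Clec3b, Clec2l and Clec2d2l2 were among the higher ones. Besides Clec10a, Clec4a, an inhibitory receptor of dendritic and other myeloid cells, averaged 231 ± 47.8 in skull and 102 ± 6.67 in limb (SD, n = 4 and 5), a log2 difference of 1.16 ± 0.12 (SE, adjusted p = 0.000246, limma). The lower ones were Clec7a (Dectin-1), at 213 ± 45.0 in skull and 431 ± 38.4 in limb, Clec12a, at 128 ± 29.7 in skull and 285 ± 9.39 in limb, and Clec1b (CLEC-2), a receptor of platelets and megakaryocytes, at 62.0 ± 12.1 in skull and 318 ± 39.7 in limb.

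Of 6 measured class A, B and F scavenger receptor genes 2 were higher in skull. Scara3 averaged 316 ± 49.6 in skull and 140 ± 14.5 in limb, and Scara5, a ferritin receptor, 67.3 ± 30.5 in skull and 29.7 ± 4.0 in limb (SD, n = 4 and 5). None of 3 Fc gamma receptor genes, 5 Toll-like receptor genes and 2 Siglec genes was called, with median log2 differences of -0.58, -0.37 and -0.71. Fcgr1a, Fcgr2b and Fcgr3a passed the adjusted p at under 2-fold, lower in skull, at -0.55, -0.90 and -0.58. So did Tlr1, at -0.75 (adjusted p = 0.0439, limma), whereas the other Toll-like receptor genes and the Siglec genes did not pass.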
